A study of Drosophila melanogaster with 66 samples.

Results

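The imaginal disc growth factors are the 6 Drosophila genes Idgf1, Idgf2, Idgf3, Idgf4, Idgf5 and Idgf6. Their mRNAs were followed through the first hours of embryonic development as total abundance and as distribution over polysome gradients. A probe set was taken as a member where the array annotation gave it one of these symbols alone. This found 7 probe sets for the 6 genes, out of 18769 probe sets without controls and 11981 genes named, with Idgf3 on a pair of probe sets. A further probe set that Idgf4 shares with CG4982 was left out. The family was selected on measured values, since Idgf4 and Idgf6 had some of the highest ribosomal occupancies at 0-2 hours, so for these 2 genes every value that rests on the 0-2 hour gradients is a description without a test.

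The proteins of this family are secreted and resemble chitinases of glycoside hydrolase family 18 in sequence and fold, but they lack a residue that chitinases need for catalysis. They were first described as factors released by cultured cells that let imaginal disc cells proliferate, move and change shape in culture, together with insulin. In the animal they are known from fat body, hemocytes and epithelia, and have been linked to the cuticle and to wound closure. As secreted proteins they are made on ribosomes docked at the endoplasmic reticulum, so a translated Idgf mRNA sits on membrane-bound polysomes until detergent releases it. In the reference annotation (Release 6 plus ISO1 MT), Idgf1, Idgf2 and Idgf3 follow one another on chromosome arm 2L, next to dac, a gene for a nuclear factor of eye and leg development. Idgf4 lies on X and Idgf5 and Idgf6 lie on 2R.

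Embryos of the Canton S strain, a wild type with no transgene or mutant allele, were collected over 2 hours and aged to 0-2, 4-6 or 8-10 hours after egg laying. Extracts made with cycloheximide, which stops ribosomes on mRNA, and with a detergent were sedimented through sucrose, and 12 fractions were taken, with free mRNA and single ribosomes in fractions 1-5 and mRNA with more ribosomes deeper in the gradient. Per period there were 2 untreated gradients, which the labels call biological replicates, with 8 arrays each (fractions 1-5 as a pool and every later fraction alone). There was also 1 gradient per period made with EDTA, which takes ribosomes off mRNA by binding magnesium, measured as 4 pools, and unfractionated RNA on 2 arrays, which gives 66 arrays in all. Each extract came from pooled whole embryos, so fewer cells that express a gene and less mRNA per cell cannot be told apart. All values are log2 signals scaled between arrays, so a value compares an mRNA with the other mRNAs on that array, and the level of a gene is never set against that of another gene here.

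The stage of the collections was checked with marker mRNAs. The summed signal of the 5 maternal markers on the array fell from 13200 and 15800 at 0-2 hours to between 1660 and 2590 later. Among these 5, stau went the other way, with log2 signals of 7.69 and 6.83 at first and between 8.78 and 9.24 later. The 4 markers of later embryos were elav, repo, sage and wor, of neurons, glia, salivary gland and neuroblasts. Their sum was 112 and 134 at 0-2 hours, and it reached 4020 and 5020 at 8-10 hours. Array medians ran from 4.56 to 5.13 on the log2 scale. Across probe sets, r between paired unfractionated arrays was 0.982 to 0.992.

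Idgf4 and Idgf6 were among the most fully loaded mRNAs at 0-2 hours and then spread over the gradient. Idgf2 started with a similar loading and was lower at 8-10 hours. Idgf3 ran the other way, from an occupancy not far above that of a flat profile to one of the highest at 8-10 hours. Idgf1, Idgf5 and the weaker Idgf3 probe set were too dim for the filter on signal. Ribosomal occupancy here means how much of the linear signal of an mRNA, in percent, lay in fractions 6-12, counting the value of the pool once for each fraction it holds. An mRNA of equal signal on every array has 58.3%, and the median of the 10358 probe sets tested was 58.6%, 61% and 61.3% at the 3 periods.

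Idgf4 had an occupancy of 96.2% and 96.8% in the 2 gradients at 0-2 hours, 74.5% and 77.1% at 4-6 hours, and 70.1% and 66.2% at 8-10 hours. Both gradients of the first period lay above all later ones, and only 5 of the tested probe sets had a higher mean at that age. The means were 96.5% ± 0.383, 75.8% ± 1.8 and 68.1% ± 2.75 (SD, n = 2). Expressed as Logit, the natural logarithm of the signal in fractions 6-12 over that in fractions 1-5, the difference from 0-2 hours was -2.17 at 4-6 hours and -2.55 at 8-10 hours. The rule that picked the gene used the 0-2 hour value, so these differences carry no test. With fractions 6 and 7 counted as non-polysomal they were -1.57 and -1.50. The step from 4-6 to 8-10 hours, which is free of it, did not pass (Logit difference -0.38, SE 0.18, adjusted p = 0.264). This adjusted p and all others are from limma with Benjamini-Hochberg adjustment over the 10358 tested probe sets, and a change is one below 0.05.

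Idgf6 had nearly the same course. Its occupancy was 95.3% and 96.1% at 0-2 hours, 71.3% and 76.5% at 4-6 hours, and 67.7% and 64.6% at 8-10 hours, again with the first period above both later ones. The means were 95.7% ± 0.551, 73.9% ± 3.71 and 66.1% ± 2.18 (SD, n = 2), and 7 tested probe sets had a higher mean at 0-2 hours. Differences in Logit from 0-2 hours were -2.07 and -2.44, given without a test for the same reason as for Idgf4, and -1.41 and -1.49 with fractions 6 and 7 counted as non-polysomal. For 8-10 against 4-6 hours the value was -0.38 (SE 0.18, adjusted p = 0.286), short of the threshold.

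Idgf2, which did not enter the choice, was loaded about as fully at first and less fully at 8-10 hours. Its occupancy was 93.8% and 95.8% at 0-2 hours and 93% and 92.4% at 4-6 hours, where Idgf4 and Idgf6 had dropped, and 81.2% and 79% at 8-10 hours. The gradients of 8-10 hours lay below the other 4. From 0-2 to 4-6 hours the Logit difference of -0.38 (SE 0.19) did not pass (adjusted p = 0.114; -0.59 and 0.0421 without 0-2 hour gradient 1, -0.17 and 0.573 without 0-2 hour gradient 2). Occupancy fell between 4-6 and 8-10 hours (-1.15, SE 0.19, adjusted p = 0.00156). The fall over the whole course was larger (-1.53, SE 0.19, adjusted p = 8.4e-06). The first of these calls was lost with fractions 6 and 7 moved to the non-polysomal side (-0.55, adjusted p = 0.0904), where the fall over the whole course was -0.87 (adjusted p = 0.00108). At 4-6 hours 13 tested probe sets had a higher mean occupancy than Idgf2, and at 8-10 hours 795 did.

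Idgf3 had a higher occupancy at 8-10 than at 0-2 hours. Its occupancy was 64.9% and 73.3% at 0-2 hours, 72% and 80.9% at 4-6 hours, and 84% and 88.6% at 8-10 hours. Those of the first 2 periods overlapped, while those of 8-10 hours lay above the other 4. The rise from 0-2 to 8-10 hours passed (Logit difference 1.04, SE 0.22, adjusted p = 0.000808), while neither single step did (0.38, SE 0.22, adjusted p = 0.174 for the first and 0.66, SE 0.22, adjusted p = 0.0914 for the second). With the replicate number as a block the last step passed (adjusted p = 0.0441). The weaker Idgf3 probe set, in a fit without the filter, had a difference of 0.40 over the whole course (adjusted p = 0.0597). Only 163 tested probe sets had a higher mean occupancy at 8-10 hours, against 2765 at 0-2 hours.

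Of the members that the test may be read for, 0 of 2 changed in occupancy from 0-2 to 4-6 hours, 2 of 2 from 0-2 to 8-10 hours (Idgf2 lower and Idgf3 higher) and 1 of 4 from 4-6 to 8-10 hours (Idgf2). Over all tested probe sets 46%, 49.6% and 6.26% changed in these comparisons, which share their gradients. In the 0 of 2, the unadjusted p were 0.0597 for Idgf2 and 0.0984 for Idgf3.

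**Figure D1:**
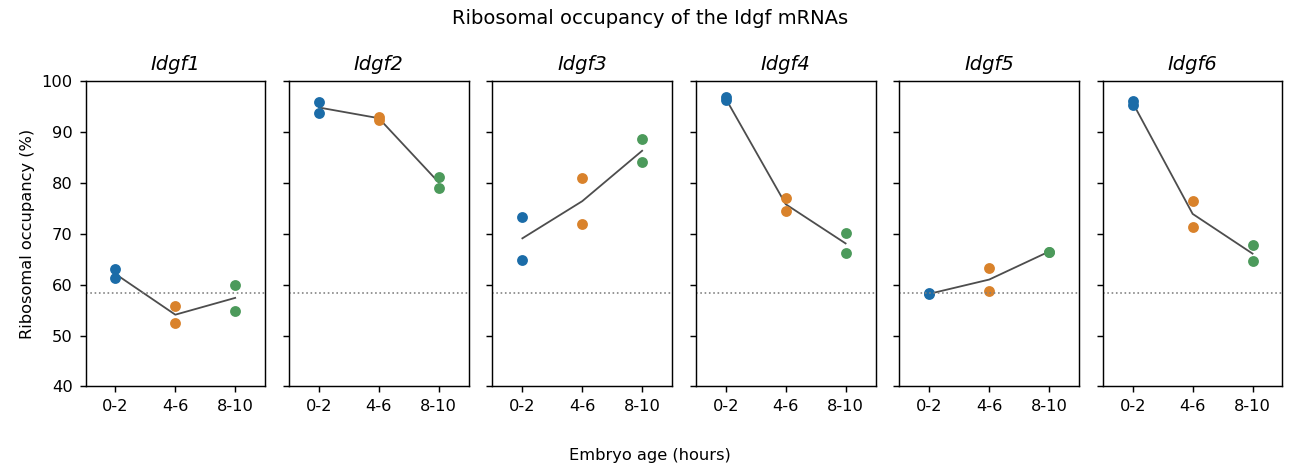
Ribosomal occupancy (percentage of linear signal in fractions 6-12) of the 6 Idgf mRNAs by embryo age in hours. Each point is 1 untreated gradient, lines join the means of the 2 gradients, and the dotted line is the 58.3% of a flat profile. Idgf4 and Idgf6 drop after 0-2 hours, Idgf2 is lowest at 8-10 hours, Idgf3 climbs to 84% and 88.6%, and Idgf1 and Idgf5 stay between 52.4% and 66.5%.

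By the limits of the study, an mRNA was called preferentially translated where its mean profile had a Logit above 1.5 and an SD of its 8 log2 values above 0.5. The base of the logarithm is not given in the sources used here, and the natural one was taken. Idgf4 and Idgf6 then met the limits at 0-2 hours and at neither later age, with Logits of 3.32 and 3.11. Idgf2 met it at 0-2 hours (2.92) and 4-6 hours (2.54) and came under the limit at 8-10 hours (1.38). Idgf3 met it at 8-10 hours (1.83, with an SD of 1.26) and not before. In base 2, tried after seeing the data, Idgf2 at 8-10 hours (2.00) and Idgf3 at 4-6 hours (1.71) met the limits as well, and the calls of Idgf4 and Idgf6 were as before (Idgf4 at 4-6 hours had 1.65, with an SD of 0.46). In base 10 no Idgf mRNA met them, the highest value being 1.44 for Idgf4 at 0-2 hours. With any of these bases no Idgf probe set was preferentially untranslated (a Logit below -0.15 with an SD below 1) at any period, the 3 weak ones included.

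Within the polysomes, the fraction that held most signal says how large the polysomes of an mRNA were. At 0-2 hours the highest of fractions 6-12 was fraction 11 for Idgf4 (23.7% and 24.7% of all signal) and Idgf6 (23.2% and 24%), and fraction 10 for Idgf2 (23% and 23.8%). Fractions 11 and 12 together held 45.6% and 48.4% of the Idgf4 signal at that age, against a median of 16.1% over tested probe sets. At 4-6 hours they held 21.5% and 24% of it, and no fraction from 6 to 12 held more than 14.2%. At 8-10 hours the pool of fractions 1-5 held 29.9% and 33.8% of the Idgf4 signal, and fractions 6 and 7 held 9.29% and 7.06%. Fractions 8-10 held 25% and 33.3%, and fractions 11 and 12 held 35.8% and 25.9%. The highest of fractions 6-12 was fraction 11 in gradient 1 (19.5%) and fraction 10 in gradient 2 (19%).

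The polysome position is the signal-weighted mean fraction number within fractions 6-12, which is 9 for a flat profile and does not depend on how much mRNA lies in fractions 1-5. For Idgf4 it was 10.07 and 10.15 at 0-2 hours, 9.11 and 9.31 at 4-6 hours, and 10.02 and 9.93 at 8-10 hours. Its middle period was the lowest, without overlap. The move of Idgf4 to deeper fractions from 4-6 to 8-10 hours passed (0.77 fractions, SE 0.13, adjusted p = 0.00256), while its occupancy in that interval did not pass. Idgf6 had positions of 9.78 and 9.98, then 8.98 and 9.25, then 9.58 and 9.41. Its later step of 0.38 fractions (SE 0.14, adjusted p = 0.124) missed the threshold. The differences between 4-6 and 0-2 hours were -0.90 for Idgf4 and -0.76 for Idgf6, and those between 8-10 and 0-2 hours were -0.14 and -0.38, all given without a test.

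Idgf2 had a position of 9.80 and 9.91, 9.49 and 9.58, and 9.81 and 9.65 at the 3 periods. Both gradients of 4-6 hours lay below the other 4, and none of its 3 differences passed (adjusted p between 0.0873 and 0.487; 0.049 for 4-6 against 0-2 hours with the replicate numbers of 0-2 hours crossed). Its highest fraction was fraction 10 in all 6 gradients. Fractions 1-5 held 6.22% and 4.2% of its signal at 0-2 hours and 18.8% and 21% at 8-10 hours.

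Idgf3 gained position as well as occupancy. Its position was 9.57 and 9.69 at 0-2 hours, 9.53 and 9.76 at 4-6 hours, and 10.39 and 10.11 at 8-10 hours, above the other 4 gradients. Both rises passed, from 4-6 hours (0.61, SE 0.14, adjusted p = 0.018) and from 0-2 hours (0.62, SE 0.14, adjusted p = 0.00444). The first was lost without 4-6 hour gradient 1 (0.49, adjusted p = 0.104) and without 8-10 hour gradient 1 (0.47, adjusted p = 0.15), and the second without 0-2 hour gradient 1 (0.56, adjusted p = 0.0646). At 8-10 hours fractions 11 and 12 held 54% of the Idgf3 signal in gradient 1 and 40.5% in gradient 2. These 2 gradients placed the peak differently, in fraction 11 (32.9%) and in fraction 10 (26.2%). The weaker Idgf3 probe set had a higher position at 8-10 than at 0-2 hours in the fit without the filter (0.42, adjusted p = 0.0198). Its mean gradient signal was only 3.20, below the array medians, so this value is weak support.

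Over these position tests, Idgf3 and Idgf4 passed of 4 members from 4-6 to 8-10 hours, where 7.67% of tested probe sets did. From 0-2 to 4-6 hours neither Idgf2 nor Idgf3 passed, against 22.4% of probe sets, and from 0-2 to 8-10 hours Idgf3 alone of these 2 passed, against 31.5%.

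**Figure D2:**
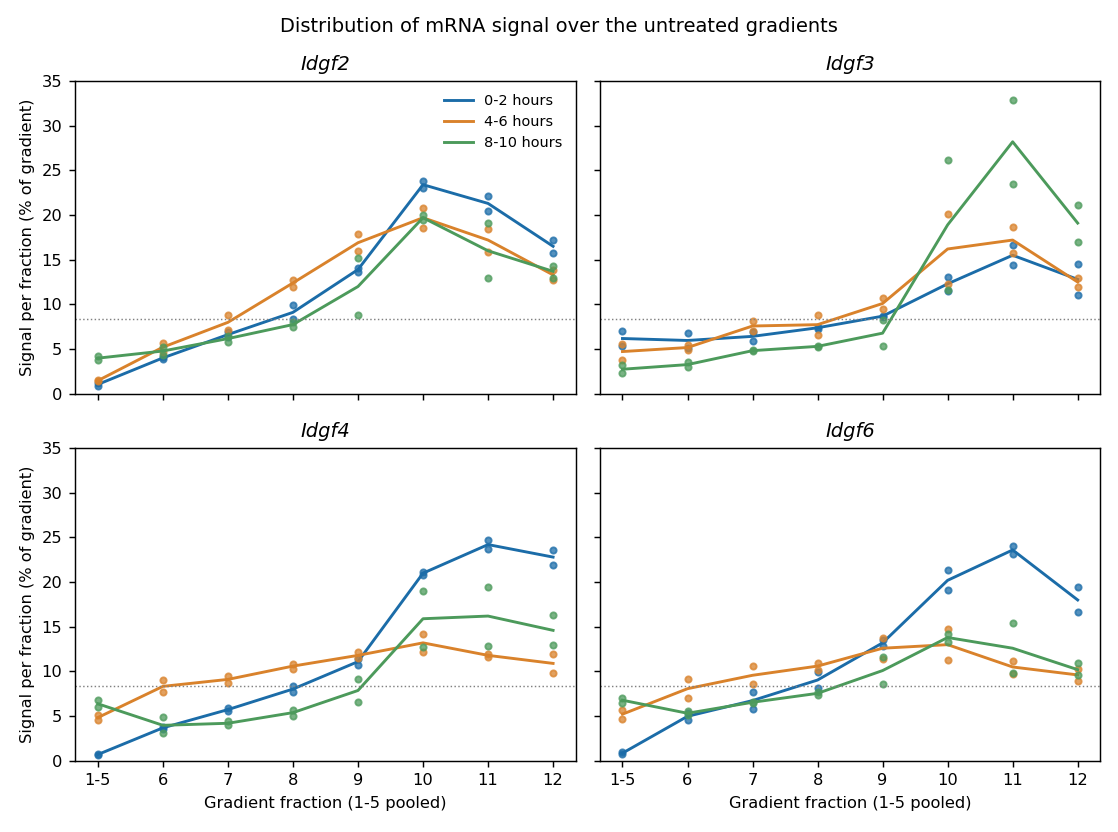
Share of the signal per gradient fraction, in percent of the whole gradient, for Idgf2, Idgf3, Idgf4 and Idgf6. The pool of fractions 1-5 is drawn as its share per fraction, points are the 2 untreated gradients of each period, lines their means, and the dotted line is a flat profile. The peak of Idgf4 and Idgf6 in fraction 11 at 0-2 hours flattens at 4-6 hours, and Idgf3 peaks in fractions 10 and 11 at 8-10 hours.

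The unfractionated arrays asked whether the amount of each mRNA changed as well, and they are independent of the choice of the genes. Idgf2, Idgf4 and Idgf6 fell from 4-6 to 8-10 hours, while Idgf3 rose. Medians of the unfractionated arrays were themselves 0.15 higher at 4-6 and 0.12 higher at 8-10 than at 0-2 hours on the log2 scale, and centring them changed the call of 1 member, given with Idgf2. Idgf6 had log2 signals of 9.97 and 9.81 at 0-2 hours, 11.30 and 11.21 at 4-6 hours, and 9.34 and 9.71 at 8-10 hours. It rose 2.58-fold into 4-6 hours (log2 difference 1.37, SE 0.18, adjusted p = 0.00203) and fell 3.32-fold from there to 8-10 hours (-1.73, SE 0.18, adjusted p = 0.00262). Its difference between 8-10 and 0-2 hours did not pass (-0.36, SE 0.18, adjusted p = 0.141). Thus Idgf6 rose in the interval in which its occupancy went from a mean of 95.7% to one of 73.9%.

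Idgf4 had log2 signals of 10.41 and 10.49, 10.81 and 10.81, and 9.12 and 9.68. Into 4-6 hours the difference of 0.36 (SE 0.21, adjusted p = 0.218) did not pass. Its fall into 8-10 hours was 2.66-fold from 4-6 hours (-1.41, SE 0.21, adjusted p = 0.00729) and 2.07-fold from 0-2 hours (-1.05, SE 0.21, adjusted p = 0.00925). The former was lost without 4-6 hour array 1, with the value unmoved (-1.41, adjusted p = 0.0588). Both arrays at 8-10 hours lay below the other 4.

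Idgf2 had log2 signals of 8.26 and 8.45 at 0-2 hours, 9.29 and 9.51 at 4-6 hours, and 7.27 and 7.96 at 8-10 hours, and the 3 periods did not overlap. It rose 2.07-fold from 0-2 to 4-6 hours (1.05, SE 0.26, adjusted p = 0.0201), a call that was lost without 0-2 hour array 1 (0.95, adjusted p = 0.0662) and without either 4-6 hour array (1.16 and 0.93, adjusted p = 0.0671 and 0.11). It fell 3.44-fold from 4-6 to 8-10 hours (-1.78, SE 0.26, adjusted p = 0.0065), in the interval in which its occupancy fell. Over the whole course the difference was -0.74 (SE 0.26) and did not pass (adjusted p = 0.0594); it was -0.39 without 8-10 hour array 1 (adjusted p = 0.248), and it passed with the replicate number as a block (0.0238), without 8-10 hour array 2 (-1.08, 0.0229) and with each array centred on its median (-0.86, 0.0322).

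Idgf3 had log2 signals of 6.10 and 6.35, 6.01 and 6.20, and 7.21 and 7.46. The first 2 periods overlapped (difference -0.12, SE 0.17, adjusted p = 0.619). The gene then rose 2.34-fold from 4-6 to 8-10 hours (1.23, SE 0.17, adjusted p = 0.00606), and its level at 8-10 hours was 2.16-fold that at 0-2 hours (1.11, SE 0.17, adjusted p = 0.00356). The call from 4-6 hours was lost without 4-6 hour array 1 (1.13, adjusted p = 0.0553) and without 8-10 hour array 2 (1.10, adjusted p = 0.0517). By their means, abundance and occupancy of Idgf3 were thus both highest in the last period, and those of Idgf2, Idgf4 and Idgf6 both lowest.

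Hemocytes and fat body, from which the family is known, were checked with their markers, whose sum was highest at 8-10 hours. The summed signal of the 11 such markers was 516 and 704 at 0-2 hours, 1770 and 1790 at 4-6 hours, and 3790 and 4210 at 8-10 hours. Ppn and srp, a matrix protein and the GATA factor that specifies both tissues, reached 10.71 and 10.89 and 10.14 and 9.70 at 8-10 hours, while NimC1, Fbp2 and Lsp2, which mark later hemocytes and larval fat body, lay below the array median. Pxn, Col4a1 and vkg were also higher at 8-10 than at 0-2 hours. The marker crq had 8.65 and 7.67 at 0-2 hours and 8.56 and 8.31 at 8-10 hours. Hml (4.70 and 5.07, then 4.85 and 4.73) and Fbp1 (4.96 and 5.20, then 5.01 and 5.07) stayed near the array median at these ages. The rise of the sum is thus not one of every marker. The part of these tissues in the values of any Idgf gene was not tested. Markers of ovary and eggshell summed to between 329 and 412 on all 6 arrays. Of the 12, 4 lay below the array median at 0-2 hours, 6 at 4-6 hours and 6 at 8-10 hours.

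Of 4 members tested, 2 changed in abundance from 0-2 to 4-6 hours (Idgf2 and Idgf6, both higher), 4 from 4-6 to 8-10 hours (Idgf2, Idgf4 and Idgf6 lower, Idgf3 higher) and 2 from 0-2 to 8-10 hours (Idgf3 higher, Idgf4 lower). Of all tested probe sets 50.5%, 30.3% and 54.3% changed in these comparisons.

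**Figure D3:**
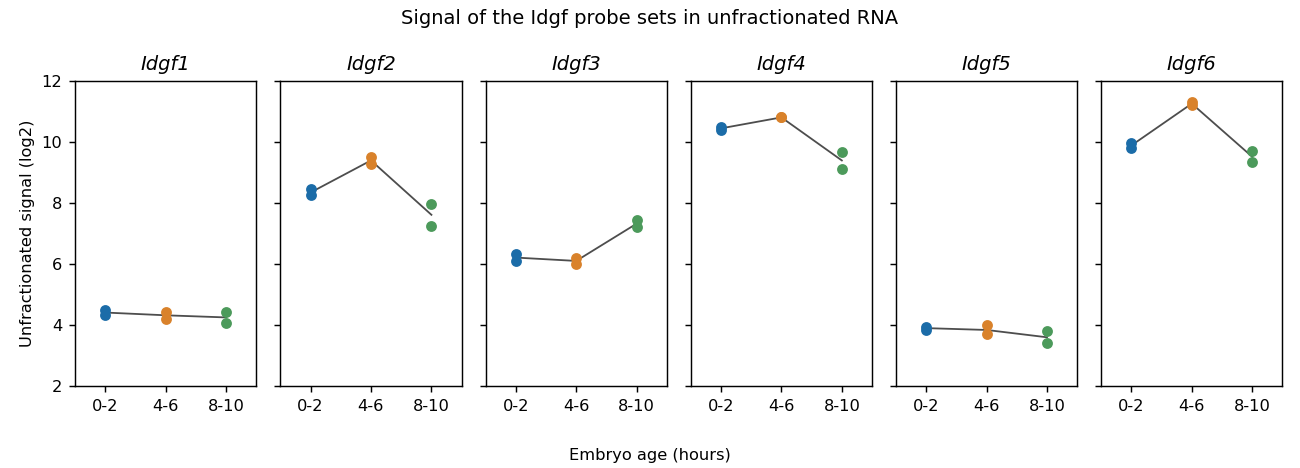
Log2 signal of the 6 Idgf probe sets in unfractionated RNA by embryo age in hours. Points are single arrays (2 per period) and lines join their means; levels can be compared over time within a panel, not between panels. Idgf2, Idgf4 and Idgf6 are lowest at 8-10 hours, Idgf3 is highest there, and Idgf1 and Idgf5 lie between 3.43 and 4.51.

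The EDTA gradients addressed whether the mRNA in deep fractions was held there by ribosomes. Where it was, EDTA moves it up the gradient, and the signal in fractions 1-5 goes up if it is released more than most other mRNAs. Release shared by most mRNAs cannot be seen, because the arrays are scaled to one another. Over tested probe sets the median EDTA difference was -0.03 at 0-2 hours and 0.06 at both later periods. A difference that did not pass therefore does not show that an mRNA was free of ribosomes. Each EDTA pool of a period was measured once, and the fit gives that array the spread of the untreated pairs. With EDTA Idgf2, Idgf3, Idgf4 and Idgf6 had between 45.3% and 62% of the signal in fractions 6-12 at every period, against medians between 57% and 58.5% over tested probe sets and 58.3% for an even spread.

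Idgf2 in fractions 1-5 had log2 signals of 6.18 and 5.62 untreated and 8.36 with EDTA at 0-2 hours, 6.65 and 6.60 against 9.43 at 4-6 hours, and 6.37 and 6.34 against 7.36 at 8-10 hours. It rose with EDTA by 5.49-fold at 0-2 hours (2.46, SE 0.30, adjusted p = 0.00287), by 7.01-fold at 4-6 hours (2.81, SE 0.30, adjusted p = 0.0028) and by 2.01-fold at 8-10 hours (1.00, SE 0.30, adjusted p = 0.0483). The last call was lost in 9 of 11 alternatives, among them the block (0.90, adjusted p = 0.133) and the omission of any 1 untreated gradient of any period (0.99 to 1.02, adjusted p between 0.0513 and 0.0846). The effect was 1.81 lower on the log2 scale at 8-10 than at 4-6 hours (difference -1.81, SE 0.42, adjusted p = 0.264), which did not pass; 0.0193% of tested probe sets passed this comparison.

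Idgf3 had 6.03 and 5.62 untreated and 6.37 with EDTA at 0-2 hours, where the difference did not pass (0.55, SE 0.37, adjusted p = 0.45). At 4-6 hours it had 5.02 and 4.53 against 6.10 (1.33, SE 0.37, adjusted p = 0.0386), and at 8-10 hours 5.52 and 4.80 against 6.99 (1.83, SE 0.37, adjusted p = 0.0134). The call at 4-6 hours was lost with the block (1.06, adjusted p = 0.071), without any filter on signal (adjusted p = 0.0556), without either 0-2 hour gradient (adjusted p = 0.0732) and without either 4-6 hour gradient (1.57 and 1.08, adjusted p = 0.072 and 0.163).

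Idgf4 had 7.48 and 7.29 untreated at 0-2 hours and 10.73 with EDTA, a difference of 3.35 that is given without a test. At 4-6 hours the values were 9.45 and 9.67 against 10.93, a rise that passed (1.37, SE 0.26, adjusted p = 0.00974; 1.26 and 0.0669 without 4-6 hour gradient 1). At 8-10 hours they were 8.62 and 8.61 against 9.11 and the difference did not pass (0.49, SE 0.26, adjusted p = 0.244). Idgf6 had 7.96 and 7.86 against 10.66 at 0-2 hours, a difference of 2.75 without a test. Later its differences were 0.63 (SE 0.28, adjusted p = 0.163) at 4-6 hours and 0.29 (SE 0.28, adjusted p = 0.546) at 8-10 hours, and neither passed. For both genes the untreated signal in fractions 1-5 was itself higher at 4-6 hours than at 0-2 hours (9.56 ± 0.16 against 7.38 ± 0.14 for Idgf4 and 10.65 ± 0.31 against 7.91 ± 0.07 for Idgf6, SD, n = 2).

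In these tests 8.69% of tested probe sets changed at 0-2 hours, 16.4% at 4-6 hours and 16.2% at 8-10 hours. Of the members, Idgf2 passed at 0-2 hours of the 2 that could be read, 3 of 4 passed at 4-6 hours (Idgf2, Idgf3 and Idgf4) and 2 of 4 at 8-10 hours (Idgf2 and Idgf3).

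**Figure D4:**
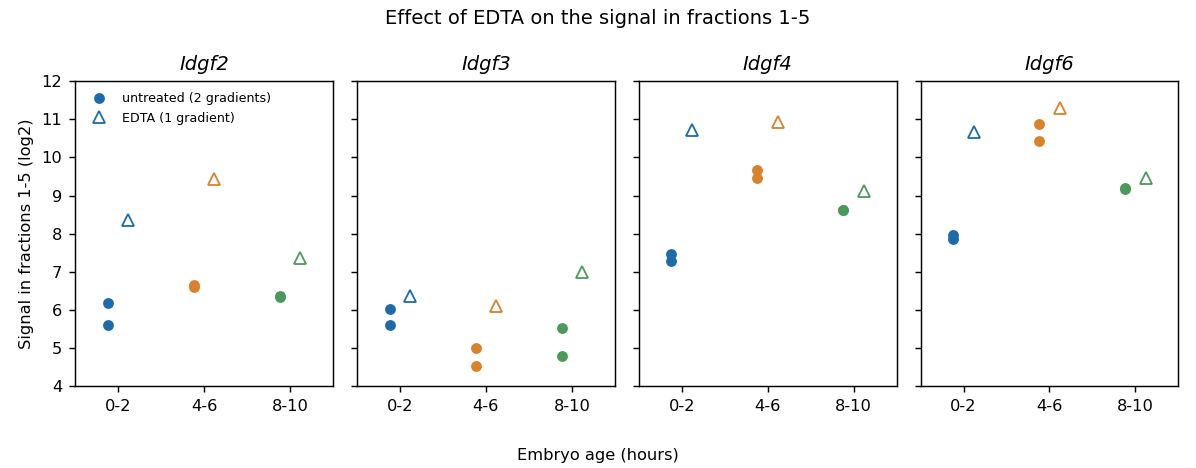
Log2 signal in fractions 1-5 by embryo age in hours for Idgf2, Idgf3, Idgf4 and Idgf6, with filled circles for the 2 untreated gradients and open triangles for the 1 EDTA gradient of each period. The gap is widest for Idgf4 at 0-2 hours (10.73 against 7.48 and 7.29), a value that rests on the gradients that picked the gene and carries no test. The differences of Idgf3 at 0-2 hours, Idgf4 at 8-10 hours and Idgf6 at 4-6 and 8-10 hours did not pass.

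Idgf1, Idgf5 and the weaker Idgf3 probe set had mean gradient signals of 4.41, 3.83 and 3.20, below the array medians, and were left out of the tests by the filter on signal. Idgf1 had occupancies of 63% and 61.3%, then 52.4% and 55.8%, then 60% and 54.8%. Idgf5 had 58.1% and 58.4%, then 58.8% and 63.2%, then 66.5% in both gradients. The weaker Idgf3 probe set had 57.3% and 50.8%, 59.6% and 59.9%, and 64% and 63.3%, and did not show the unfractionated rise of its partner (3.46 and 3.29, 2.89 and 3.13, 3.14 and 3.32). The pair of Idgf3 probe sets therefore disagrees on abundance. At signals this low a flat profile is also what background alone would give, so presence or absence of these mRNAs cannot be told from it. The weaker Idgf3 probe set was less flat at 8-10 hours, with 17.8% and 12.2% of its signal in fraction 11.

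The genes whose log2 signals ran most like each member over the 54 arrays without EDTA were ranked by Pearson's r among 8004 other genes (8005 for Idgf1 and Idgf5), as a description, since neighbouring fractions and periods are shared by all genes. These arrays include the 0-2 hour gradients on which Idgf4 and Idgf6 were picked. The r of these 2 genes with each other and with other genes loaded at 0-2 hours is thus partly fixed by that choice. Idgf6 was nearest to bora, an activator of Aurora A kinase (r = 0.947), to cathD, the lysosomal protease cathepsin D (0.939), and to Idgf4 (0.937). Idgf4 was nearest to Kdm4A, a histone demethylase (0.954), l(2)k09913 (0.950) and Idgf6. Idgf2 was nearest to O-fut1, the fucosyltransferase that modifies Notch in the endoplasmic reticulum (0.965), to cathD (0.961) and to CG9953 (0.926). Mean occupancies at the 3 periods were 94.3%, 91.1% and 82.8% for O-fut1, 94.7%, 82.7% and 69.4% for cathD, and 92.5%, 74.6% and 59.9% for Kdm4A. Idgf3 was nearest to CG5390 (0.910), the lipid phosphatase mtm (0.885) and the seryl-tRNA synthetase SerRS (0.875). Between members r was 0.90 for Idgf2 with Idgf4 and 0.92 for Idgf2 with Idgf6, but 0.30, 0.26 and 0.07 for Idgf3 with Idgf2, Idgf4 and Idgf6. For the dim Idgf1 no gene exceeded 0.546, and for Idgf5 none exceeded 0.767.

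Of the 12 listed names of chitinases, the enzymes that the family resembles, 10 had a probe set of their own and 8 were tested. In occupancy 1 rose and 1 fell from 0-2 to 4-6 hours and 2 rose from 4-6 to 8-10 hours, with median Logit differences of -0.05 and -0.19 against -0.01 and 0.01 over all tested probe sets, of which 46% and 6.26% changed. Cht10 had a mean occupancy of 90.8% ± 0.464 (SD, n = 2) at 0-2 hours, where the other 7 had between 39.8% and 69.6%, and it fell into 4-6 hours (-1.01, adjusted p = 0.00175). Cht5, a molting chitinase, rose from 45.7% to 71.9% between 4-6 and 8-10 hours (1.11, adjusted p = 0.00125), and Cht7 from 57.3% to 80.9% (1.18, adjusted p = 0.00236). At 4-6 hours their mean unfractionated log2 signals were 4.82 and 4.32, against a median of 4.80 over all probe sets. For both, a gain in loading therefore cannot be told from signal coming up out of background. In abundance 3 chitinases rose and 0 fell from 4-6 to 8-10 hours, where 30.3% of tested probe sets changed.

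Of 15 tested genes for chitin synthesis and matrix, 7 rose in abundance from 4-6 to 8-10 hours and 0 fell, with a median log2 difference of 1.47 against -0.05 over all tested probe sets, of which 30.3% changed. The matrix protein obst-A rose by 3.98 on that scale (adjusted p = 0.0137), and the chitin deacetylase verm by 2.52 (adjusted p = 0.0456). In occupancy 2 of the 15 rose over that interval (6.26% of tested probe sets changed), Cda4 (1.23, adjusted p = 0.00143) and serp (0.71, adjusted p = 0.045), both chitin deacetylases.

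Insulin signaling, with which these factors act on cultured cells, had 10 tested genes of 24 listed. From 0-2 to 4-6 hours 4 of them fell in occupancy and 0 rose (median Logit difference -0.43 against -0.01 over all tested probe sets, of which 46% changed), namely gig (-1.56, adjusted p = 1.7e-05) and Tsc1 (-1.54, adjusted p = 1.2e-05), which together restrain the growth kinase Tor, the receptor substrate chico (-1.23, adjusted p = 6.1e-05), and ImpL2 (mean occupancies of 86.8% and 68.9%), a member of the list that is beyond the 3 genes the naming rule allows here and was named after its values were seen. Sdr, a secreted protein that binds insulin-like peptides, did not pass in the first interval and fell from there to 8-10 hours (-1.45, adjusted p = 0.000467), and its abundance fell too (-2.43, adjusted p = 0.00131). At 8-10 hours Sdr had a mean unfractionated log2 signal of 4.83, against a median of 4.78 over all probe sets. Its occupancy of 60.1% at that age therefore cannot be told from that of background. ImpL2, a secreted binder of these peptides, rose in abundance by 4.80 from 0-2 to 4-6 hours (adjusted p = 0.000133).

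Among the adenosine deaminase-related growth factors, the other family of secreted growth factors named from cultured cells, 2 of 6 were tested. Adgf-A rose in abundance by 2.14 and then 2.58 on the log2 scale over the 2 intervals (adjusted p = 0.000787 and 0.00138), and neither tested gene passed in occupancy; 50.5% and 30.3% of tested probe sets changed in abundance. Of 15 tested genes of signal peptide targeting and the translocon, which secreted proteins such as the Idgfs need, 5 rose and 5 fell in occupancy from 0-2 to 4-6 hours and 0 changed from 4-6 to 8-10 hours, against 46% and 6.26% of tested probe sets. Srp72 and Srp68, subunits of the signal recognition particle, rose most in the first interval (2.27 and 2.06, adjusted p = 4.7e-07 and 8.9e-07).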

How the data were processed

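RNA of Canton S embryos was hybridised to Affymetrix Drosophila Genome 2.0 arrays. Per the labels and methods, the authors normalised all arrays by RMA (background correction, quantile normalisation, probe set summary) and deposited log2 values for 18952 probe sets, of which 183 are controls. Quantile normalisation removes differences in total mRNA between fractions. Genes came from the platform annotation, in which 13646 probe sets name 1 gene, 402 several and 4721 none, with symbols updated by gene ID. Where a gene had several probe sets, the brightest over the gradients stood for it, and all 6 Idgf genes are named by rule.

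Occupancy, Logit and position were computed per gradient from linear signal. The tests used limma (version 3.58.1, R 4.3.3) with 6 Logits, 6 positions, 6 unfractionated arrays, or the 9 arrays of fractions 1-5 (period by treatment), for the 10358 probe sets in the upper 50% of signal in at least 1 period. The fits were tested on simulated data. With 2 samples per group an exact permutation test cannot go below 0.333. The alternatives were the filter, the variance trend, the block, the weighting of the pool, background subtraction, centring, leaving out each array or gradient, and the crossed numbering and the base of the Logit, which were added after seeing the data. Members, lists and tests were chosen with earlier results of these data known. The number of arrays limits the precision.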

Additional observations from a re-analysis of the deposited data

How the results depend on the processing

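Of the alternatives run for Idgf2, Idgf3, Idgf4 and Idgf6, 574 values of single genes kept direction and side of the threshold, 30 lost and 6 gained a call, 8 untested ones moved, 4 of them where a log2 ratio, another unit, replaced position, and 6 reversed. Counts of members that passed moved as follows. Leaving out 1 gradient or array at a time gave 0 to 1 for occupancy and 1 to 2 for abundance from 0-2 to 4-6 hours, 2 to 4 for abundance and 1 to 2 for position from 4-6 to 8-10 hours, 0 to 1 for position from 0-2 to 8-10 hours, and 1 to 3 for EDTA at 4-6 hours; for EDTA at 8-10 hours each gave 1 in place of 2. Some of these fits leave 1 sample in a group, which is assumed to vary like the others. Without the filter, position from 0-2 to 8-10 hours gave 2 and EDTA at 8-10 hours 1, which the variance trend gave too. The top 25% of signal excludes Idgf3 and gave 1 for occupancy, 1 for abundance and 0 for position (0 at unadjusted p below 0.05 in limma) from 0-2 to 8-10 hours, 1 for position from 4-6 to 8-10 hours and 1 for EDTA at 8-10 hours. With fractions 6 and 7 non-polysomal, 0 passed in occupancy from 4-6 to 8-10 hours (2 at unadjusted p below 0.05 in limma), and Idgf4 was at 0.07; the cause was not tested.

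For Idgf3, reversed values were small: abundance from 0-2 to 4-6 hours ran from -0.24 to 0.01 and position from -0.10 to 0.13 on leaving out replicates, and its weaker probe set had -0.14 for abundance from 0-2 to 8-10 hours and -0.01 for that position.

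Only 2 replicate numbers exist and nothing in the labels says they mark a batch. With the number as a block, 2 members in place of 1 passed in occupancy from 4-6 to 8-10 hours and 1 in place of 2 for EDTA at 8-10 hours, and probe sets called for EDTA went from 900, 1699 and 1673 to 280, 841 and 628 over the periods. Same-numbered deviations correlated between -0.287 and -0.0414 for occupancy, -0.224 and 0.355 for position, and 0.146 and 0.577 for abundance. Crossing the 0-2 hour numbers, an alternative added after seeing the data, gave 1 member for position from 0-2 to 4-6 hours and 3076 probe sets in place of 2316.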
